A study of Mus musculus with 28 samples.

Results

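The genes described here are 10 enzymes and enzyme subunits that break down the branched-chain amino acids (leucine, isoleucine and valine) and lysine, chosen by symbol and found in the liver read counts by their Ensembl identifiers: *Bckdha*, *Bckdhb*, *Dbt*, *Ivd*, *Mccc1*, *Mccc2*, *Pcca*, *Pccb*, *Aass* and *Gcdh*. All 10 were among the 49585 counted features and among the 21583 genes that passed the filter on low counts. The libraries came from livers of C57BL/6JOlaHsd mice aged 5-7 months, fed standard chow and, per the methods, fasted for 4 h before sampling, with 7 mice in each of 4 groups. Males and females were either wild type (WT) or carried the SIRT6 transgene (SIRT6-tg). The transgenic mice overexpressed the sirtuin SIRT6, a chromatin deacetylase, from a transgene whose promoter is not given in the sources used here, and were compared with their WT littermates. All came from 1 transgenic line, so that effects of SIRT6 and of that line cannot be told apart, and counts of *Sirt6* may mix reads of the mouse gene and of the transgene.

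Branched-chain amino acids lose their amino group and the resulting keto acids are decarboxylated in mitochondria by the branched-chain α-ketoacid dehydrogenase complex, the committed step. Leucine carbon then passes through isovaleryl-CoA dehydrogenase and the biotin enzyme 3-methylcrotonyl-CoA carboxylase toward acetyl-CoA and ketone bodies, while isoleucine and valine give propionyl-CoA, which propionyl-CoA carboxylase feeds into the TCA cycle. Liver has little of the aminotransferase and receives much of its keto acid from muscle, whereas lysine is broken down chiefly in liver itself, through saccharopine to glutaryl-CoA.

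The first 250 bases upstream of the RefSeq transcription start (build GRCm38.p6, the patched form of mm10) are shown for *Gcdh* and *Mccc2*, the members with the largest difference between male SIRT6-tg and male WT mice, and for *Bckdhb*, the member with the smallest. They are printed 5′ to 3′ on the strand of the gene and end at the base before the start. Capitals mark matches, on either strand, to the CCAAT box (CCAAT), the GC box (GGGCGG), the E-box (CACGTG) and the nuclear receptor element (AGGTCA).
*Gcdh* (chr8:84893922-84894171, minus strand): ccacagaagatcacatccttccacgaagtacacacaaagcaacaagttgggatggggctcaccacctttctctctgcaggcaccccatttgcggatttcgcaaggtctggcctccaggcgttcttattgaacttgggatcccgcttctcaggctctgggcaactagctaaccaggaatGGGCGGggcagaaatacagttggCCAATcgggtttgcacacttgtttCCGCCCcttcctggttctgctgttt
*Mccc2* (chr13:100015640-100015889, minus strand): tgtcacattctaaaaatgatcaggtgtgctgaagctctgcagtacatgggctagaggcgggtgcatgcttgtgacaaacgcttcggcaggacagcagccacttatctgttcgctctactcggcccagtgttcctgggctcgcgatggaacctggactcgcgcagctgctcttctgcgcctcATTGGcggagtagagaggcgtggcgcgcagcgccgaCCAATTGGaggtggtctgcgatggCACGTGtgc
*Bckdhb* (chr9:83924887-83925136, plus strand): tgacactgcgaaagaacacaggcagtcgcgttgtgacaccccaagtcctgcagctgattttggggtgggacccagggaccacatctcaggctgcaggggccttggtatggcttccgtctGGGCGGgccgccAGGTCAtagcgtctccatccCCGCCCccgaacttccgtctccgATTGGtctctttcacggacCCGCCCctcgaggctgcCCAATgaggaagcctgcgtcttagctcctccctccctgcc
In the *Gcdh* window a CCAAT box starts 49 bases before the start, between GC boxes at 72 and 25 bases, and the *Mccc2* window holds 3 CCAAT boxes, the last 2 overlapping at 33 and 30 bases, and an E-box at 9 bases. The *Bckdhb* window shown likewise holds 2 CCAAT boxes and, in addition, 3 GC boxes. RefSeq gave a second *Bckdhb* window (chr9:83948531-83948780, plus strand), which holds none of these motifs. This second window lies inside the Gencode gene (chr9:83925145-84124240), and the bases just after its start occur in a Gencode transcript of *Bckdhb*. The window shown ends just upstream of the Gencode gene start. The bases that follow it were not found as an exact run in a Gencode transcript. RefSeq gave windows for 9 of the 10 members (11 windows in all), and *Dbt* had none. A CCAAT box lay in the windows of 7 of these 9 members, all but *Bckdha* and *Pccb*. Counted by window, it lay in 8 of 11, against 34.5% of the 16789 windows of genes tested and 33.8% of all 32851 windows. A GC box lay in those of 4 members (*Bckdhb*, *Mccc1*, *Pcca* and *Gcdh*), in 4 of the 11 windows, against 51% of the windows of genes tested. The AGGTCA element was found for *Bckdhb*, *Pcca* and *Aass* (12% of windows of genes tested), the E-box for *Mccc2* alone (7.46%) and the NRF1 motif GCGCATGC for *Pccb* alone (3.56%). The *Pcca* match to AGGTCA lies in a window (chr14:122484115-122484364) far upstream of the Gencode gene start at 122534324. The bases after the start of that window were not found in a Gencode transcript, and the *Pcca* window at the gene start holds no AGGTCA. No member window held the ETS motif CCGGAAG, the CRE TGACGTCA or the TATA box TATAAA, found in 11.2%, 2.27% and 7.71% of those windows. These are matches of letters, not measurements of binding.

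Libraries held 18758863 to 35393069 counted reads. Levels below are given as CPM, counts relative to a library size corrected for differences in composition by TMM. *Sirt6* itself, as the check of the labels, was at 2.73 ± 0.511 CPM (SD, n = 7) in male WT and 280.9 ± 55.2 CPM in male SIRT6-tg mice, and at 2.88 ± 1.55 and 30.2 ± 12.5 CPM in the female groups. No transgenic mouse overlapped the WT mice of its sex, and the increase was larger in males (difference of log2 fold changes 3.29, adjusted p = 6.96e-06). Hepatocyte markers made up 128000 to 244000 CPM in every library. Markers of other cells differed between the male groups: 8 of 8 T cell genes (summed 14 to 41.4 CPM in WT, 4.69 to 7.51 in SIRT6-tg), 8 of 8 macrophage genes (661 to 2130 against 319 to 567 CPM) and 5 of 5 stellate cell genes (298 to 559 against 191 to 295 CPM) were lower in SIRT6-tg. Of 15 hepatocyte genes, 7 were higher, and in females none of these markers passed the test. In whole liver, fewer cells of a type and less RNA per cell cannot be told apart, and the part of these markers in the results on the 10 members was not tested.

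All 10 members were counted in every mouse, with at least 580 reads each, and their coefficients of variation within groups were 1.83 to 21.2% (median 11.3%). Per kilobase of merged exon, *Gcdh*, which encodes the glutaryl-CoA dehydrogenase of lysine and tryptophan breakdown, stood highest in each group, at 189 ± 18.2 CPM per kb (SD, n = 7) in male WT mice. Its range there (169 to 214) did not overlap that of the next gene in the order. *Pccb* (76.8 ± 4.78) and *Aass* (69.1 ± 8.77) followed and overlapped each other, with *Pccb* higher in 6 of 7 male WT mice. By this length *Aass* was the higher of both in 6 of 7 female mice of each genotype.
*Bckdhb* came next (47.6 ± 4.21 CPM per kb in male WT), clear of *Ivd* (35.5 ± 5.07). *Ivd* overlapped *Dbt* (32.1 ± 3.21), and *Bckdha* (22.7 ± 4.83) overlapped *Mccc2* (22.7 ± 1.66). *Pcca* (14 ± 2.44) and *Mccc1* (4.34 ± 0.733) were lowest and did not overlap each other. Below *Gcdh*, which stood first by either length, the order depends on the length used. With the principal transcript in place of merged exons, *Mccc1* was at 19.4 and *Pcca* at 28 CPM per kb in male WT mice, and *Bckdhb* (58.3) overlapped *Ivd* (53.4). By that length *Ivd* (66.9) had a higher mean than *Bckdhb* (64.9) in male SIRT6-tg mice. *Pccb* (88.7) and *Aass* (86.8) then lay close together in female WT mice, with *Pccb* higher in 3 of 7, and *Aass* was higher in 4 of 7 female SIRT6-tg mice. *Bckdha* shares 1171 of its 1899 exon bases with *B3gnt8* on the opposite strand, and *Pcca* shares 241 with *Ggact*. *Mccc1* shares 613 of its 10952 exon bases with antisense and pseudogene features on the opposite strand. The strand setting of the read counting is not given in the sources used here, and if reads on shared bases were dropped, *Bckdha* would stand at 59.3 CPM per kb, between *Aass* and *Bckdhb*.

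**Figure D1:**
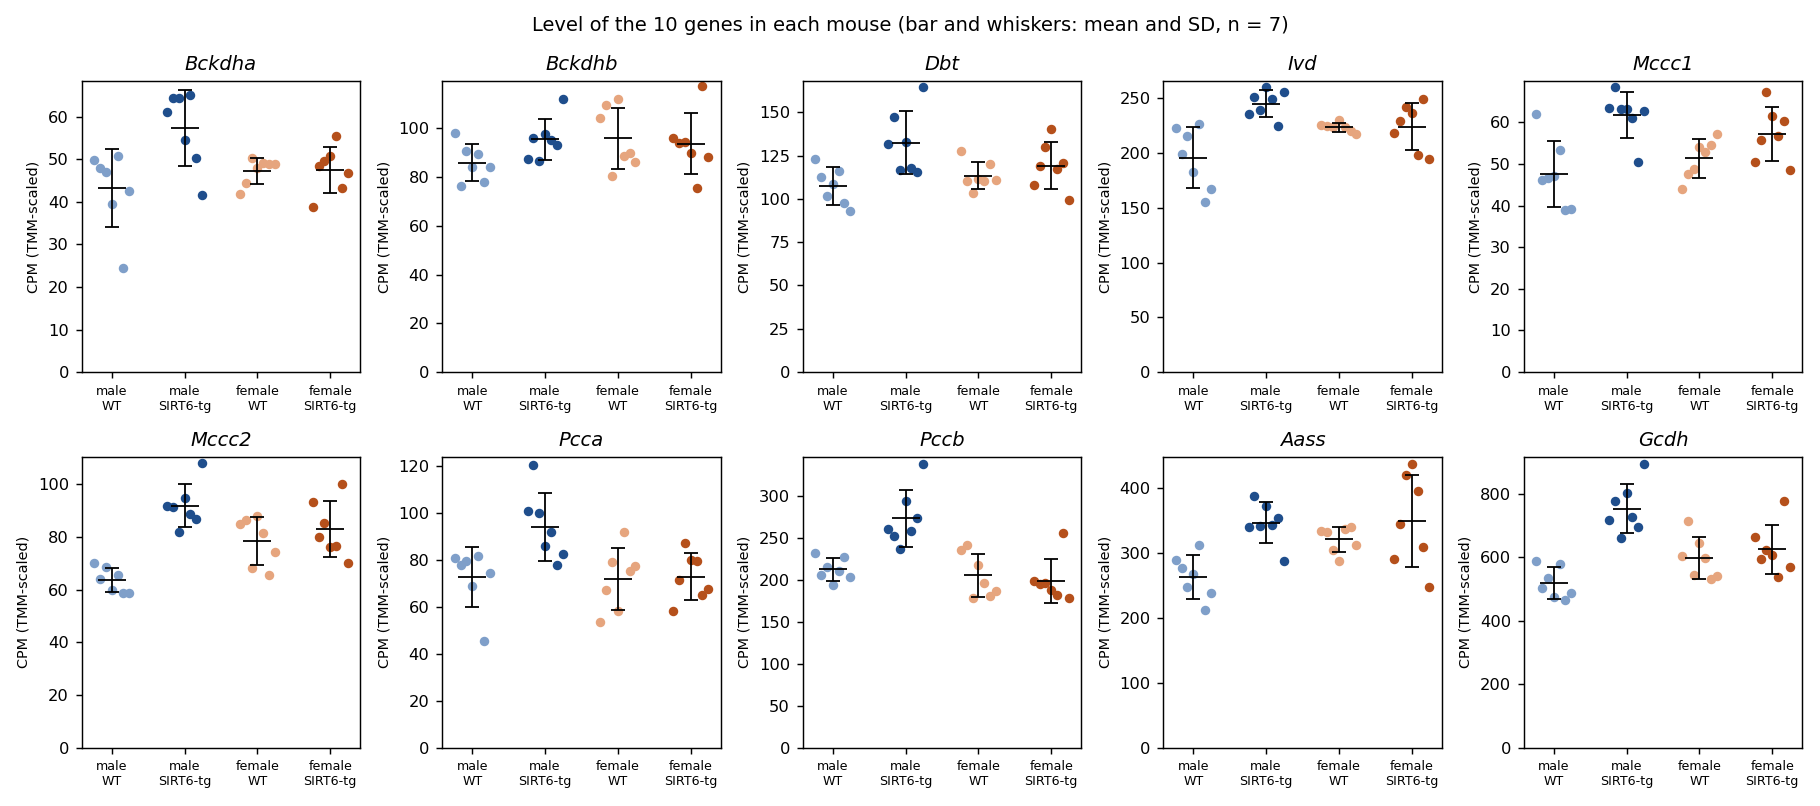
CPM (TMM-scaled) of each member in each mouse, by group, on linear axes from 0; points are mice, horizontal bars the mean and whiskers the SD of 7 mice. In *Gcdh*, *Mccc2* and *Pccb* every male SIRT6-tg mouse lies above every male WT mouse on this scale, and in the female groups all 10 members overlap.

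The first comparison asked how the transcripts of these pathways differed between SIRT6-tg and WT males. Scaled by TMM, 9 of the 10 members were higher in male SIRT6-tg mice and none was lower, with *Bckdhb* not passing the test, against 9.68% of all genes tested that were higher and 11% that were lower (4466 genes in all at an adjusted p under 0.05, edgeR quasi-likelihood test). Their median log2 fold change was 0.37, and that of all genes tested was 0.06. The size and the calls hang on the scaling. TMM factors of the male groups did not overlap (1.06 to 1.17 in WT, 0.821 to 0.993 in SIRT6-tg), and scaling by library size alone moved the median of all genes to -0.22, with 2 members (*Gcdh* and *Mccc2*) then higher, *Bckdhb* at -0.13 and *Dbt* at 0.01. Of all 4293 genes then called, 4.89% were higher, against 46.8% of calls under TMM. Under RLE scaling 8 members were higher, without *Pcca* (adjusted p = 0.0613), and under upper-quartile scaling 7, without *Pcca* (0.102) and *Dbt* (0.0991). Of all genes called under these, 35.7% of 3906 and 26.2% of 3591 were higher. Scaling to hepatocyte secreted-protein genes moved the median of all genes to -0.26, with no member called and *Bckdhb* (-0.18) and *Dbt* (-0.03) below 0. Of all 3917 genes called there, 3.6% were higher. Under TMM the members' median lay 0.32 above that of all genes, and each of the 10 lay above it. A change of scaling moves every gene by nearly the same amount, so this distance could not change with the scaling.

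**Figure D2:**
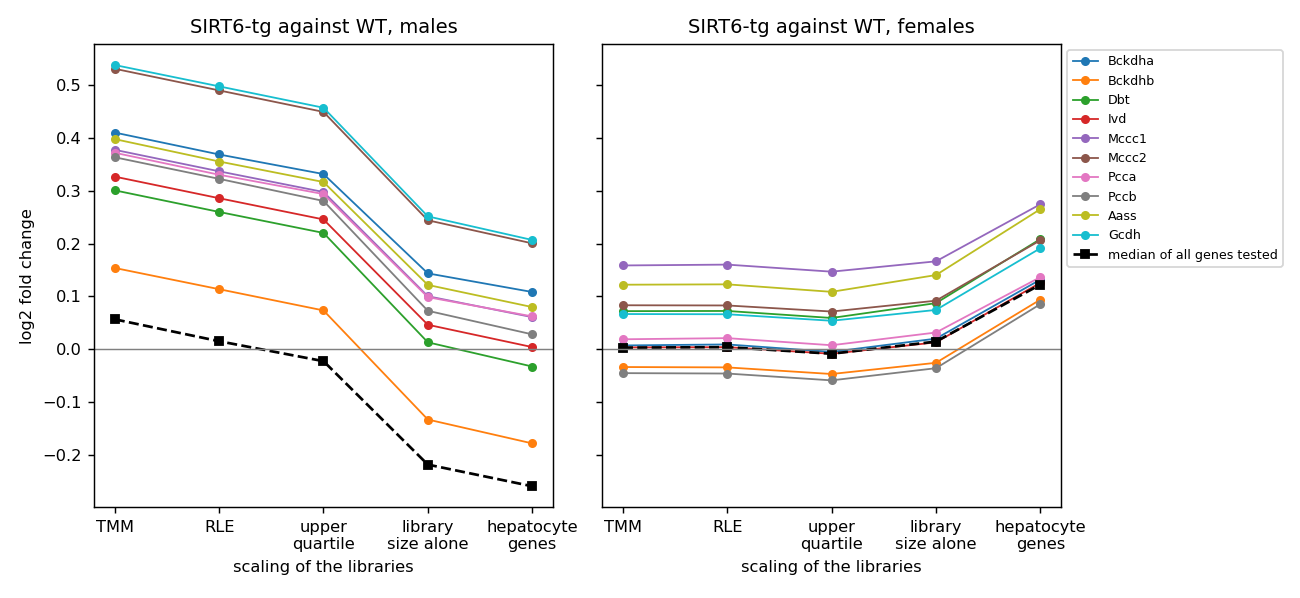
Log2 fold change of each member (coloured lines) and the median of all genes tested (dashed), SIRT6-tg against WT, in males and females, under 5 scalings of the libraries. In males, *Bckdhb* falls below 0 under library size alone and *Bckdhb* and *Dbt* under hepatocyte genes, while all 10 stay above the dashed line; the lines run nearly parallel because a scaling moves all genes nearly alike.

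In the branched-chain α-ketoacid dehydrogenase complex, *Bckdha* (E1α subunit) lay between 24.4 and 50.8 CPM (median 46.9) in WT males and between 41.6 and 65.2 CPM (median 61) in transgenic males. It rose by a log2 fold change of 0.41 (SE 0.12, adjusted p = 0.0149). The ranges overlapped, 5 of 7 SIRT6-tg mice lying above every WT mouse, and the lowest WT mouse, replicate 6, stood apart. Without that mouse the log2 fold change was 0.31 and still passed, whereas without male WT replicate 4 it did not (adjusted p = 0.0562). The *Bckdha* call was also lost when the male libraries were fitted alone.
*Bckdhb* (E1β subunit) lay between 76.3 and 98.2 CPM (median 84.3) in WT males and between 86.8 and 112 CPM (median 95.2) in transgenic males. Its log2 fold change of 0.15 (SE 0.09, adjusted p = 0.26) did not pass, although all 7 SIRT6-tg mice lay above the WT median.
*Dbt*, the lipoate-bearing E2 core of the complex, lay between 92.8 and 122.9 CPM (median 108.8) in WT males and between 115.7 and 164.5 CPM (median 131.9) in transgenic males, a log2 fold change of 0.30 (SE 0.09, adjusted p = 0.0164). The top of the WT range and the bottom of the SIRT6-tg range overlapped, and the call was lost without male SIRT6-tg replicate 2 (adjusted p = 0.0513) or 7 (0.0724). It was also lost with the male libraries fitted alone.

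On the leucine branch, *Ivd*, which encodes isovaleryl-CoA dehydrogenase, lay between 155.2 and 226.5 CPM (median 198.7) in WT males and between 224.8 and 260.5 CPM (median 249.3) in transgenic males. It rose by 0.33 (log2 fold change, SE 0.08, adjusted p = 0.00442), and 6 of 7 SIRT6-tg mice exceeded every WT mouse. When the male libraries were fitted alone, *Ivd* did not pass.
*Mccc1*, the biotin-bearing α subunit of 3-methylcrotonyl-CoA carboxylase, lay between 39 and 61.9 CPM (median 46.5) in WT males and between 50.5 and 68.4 CPM (median 63.1) in transgenic males. The log2 fold change was 0.38 (SE 0.1, adjusted p = 0.00523), with an overlap made by the highest WT and the lowest SIRT6-tg mice. *Mccc1* likewise did not pass with the male libraries fitted alone.
*Mccc2*, the β subunit, lay between 58.6 and 69.9 CPM (median 63.9) in WT males and between 81.8 and 107.9 CPM (median 91.2) in transgenic males, so that the groups did not overlap. Its log2 fold change of 0.53 (SE 0.09, adjusted p = 4.51e-05) was one of the largest among the members and passed with each library left out in turn.

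Propionyl-CoA carboxylase showed a similar mean difference in both subunits. *Pcca*, the biotin-bearing α subunit, lay between 45.6 and 81.7 CPM (median 77.7) in WT males and between 77.7 and 120.2 CPM (median 92.1) in transgenic males, with a log2 fold change of 0.37 (SE 0.13, adjusted p = 0.0356). This call was the least stable of the 9. Beside RLE and upper-quartile scaling, library size alone and hepatocyte genes, it was lost without a filter on low counts (adjusted p = 0.0513) and when the male libraries were fitted alone (0.147), and it passed with filterByExpr, DESeq2 and the replicate block. It was also lost without male WT replicate 2 (adjusted p = 0.0501), 4 (0.102) or 6 (0.0729), without male SIRT6-tg replicate 1 (0.0748), 2 (0.116) or 3 (0.0568), and without female WT replicate 6 (0.0503), which enters through the shared estimate of the spread.
*Pccb*, the β subunit, lay between 194.7 and 232 CPM (median 211.1) in WT males and between 236.6 and 339 CPM (median 260.7) in transgenic males. The groups did not overlap, and the log2 fold change was 0.36 (SE 0.09, adjusted p = 0.00509). The highest SIRT6-tg mouse, replicate 7, had the lowest TMM factor of its group. Leaving out the library with the lowest factor of each of the 4 groups gave 0.23 (adjusted p = 0.0697), and 6 members were then higher, the calls of *Dbt*, *Pcca* and *Pccb* being lost.

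In lysine breakdown, *Aass*, which encodes the bifunctional enzyme of the first steps through saccharopine, lay between 212.8 and 312.1 CPM (median 267.9) in WT males and between 288.4 and 388.4 CPM (median 343.9) in transgenic males. It rose by 0.40 (log2 fold change, SE 0.11, adjusted p = 0.00741), and 6 of 7 SIRT6-tg mice exceeded every WT mouse.
*Gcdh* lay between 464.4 and 590.5 CPM (median 502.5) in WT males and between 662.8 and 896.2 CPM (median 729) in transgenic males. The groups did not overlap. The log2 fold change was 0.54 (SE 0.09, adjusted p = 6.27e-05), the largest of the 10, and it passed with each library left out in turn.

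**Figure D3:**
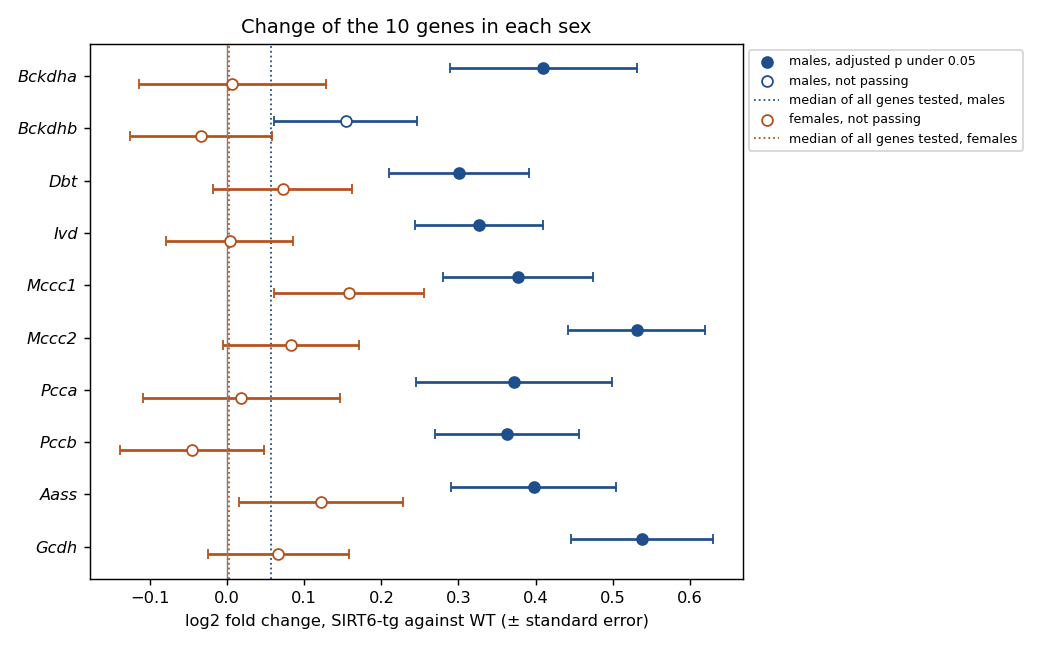
Log2 fold change of each member, SIRT6-tg against WT, in males (blue) and females (orange), with standard errors; filled points have an adjusted p under 0.05, and dotted lines mark the median of all genes tested. Filled male points run from 0.30 (*Dbt*) to 0.54 (*Gcdh*) and female points from -0.05 (*Pccb*) to 0.16 (*Mccc1*); library size alone or hepatocyte genes as the scale would put male *Bckdhb*, and the latter also *Dbt*, below 0.

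In females, none of the 10 members passed the test between SIRT6-tg and WT mice. The edgeR test called 0 of 10 in each direction, against 0.0232% of all genes tested that were higher and 0.00463% lower (6 genes in all, and 1212 at an unadjusted p under 0.05), no member reached an unadjusted p under 0.05, and DESeq2 called 44 genes and no member. The members' median log2 fold change was 0.04. *Mccc1* had the largest value (0.16, SE 0.1), with 44.1 to 57.2 CPM in female WT (median 52.8) and 48.5 to 67.2 in female SIRT6-tg mice (median 56.8). Next came *Aass* at 0.12 (SE 0.11), whose spread was wider in female SIRT6-tg mice, 247.7 to 437.7 CPM (median 345.2), than in female WT mice, 288 to 340.6 (median 333.1).
*Gcdh* ranged from 532 to 714.1 CPM in female WT (median 598) and from 537.3 to 778.6 in female SIRT6-tg mice (median 607.3), a log2 fold change of 0.07 (SE 0.09). *Mccc2* ranged from 65.4 to 88 (median 81.3) and from 70 to 100.2 CPM (median 79.8), a change of 0.08 (SE 0.09). In both genes the groups lay nearly on top of each other.
*Ivd* varied least of all, from 217.8 to 230.6 CPM in female WT mice (coefficient of variation 1.83%), and ranged from 194.5 to 249.7 CPM in female SIRT6-tg mice. Group means of *Ivd* were 223.6 and 224.1 CPM, those of *Bckdha* 47.4 and 47.6, and those of *Pcca* 71.8 and 72.8. *Dbt* stood at 113.5 and 119.3 CPM, *Bckdhb* at 95.9 and 93.7, and *Pccb* at 205.7 and 199.3, all with an adjusted p of 0.9999.

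Whether the effect of the transgene differed between the sexes was tested as the difference of the 2 log2 fold changes. This difference was above 0 for all 10 members under TMM, from 0.19 (*Bckdhb*) to 0.47 (*Gcdh*), but passed the test only for *Gcdh* (SE 0.13, adjusted p = 0.0281) and *Mccc2* (0.45, SE 0.12, adjusted p = 0.0306), that is 2 higher and 0 lower against 1.2% of all genes tested that were higher and 3.84% lower. For the other 8 members a difference between the sexes was not shown. Both calls lay close to the threshold. They were lost under RLE and upper-quartile scaling, library size alone and hepatocyte-gene scaling (where *Mccc2* was at -0.01 and 9 of 10 members were below 0). Without a filter on low counts or with the replicate block they were lost too. Leaving out the library with the lowest TMM factor of each group lost the *Mccc2* call. Both were also lost without male WT replicate 4 (adjusted p 0.0657 for *Gcdh*, 0.0682 for *Mccc2*), male WT replicate 7 (0.0526 and 0.058), female WT replicate 2 (0.0514 and 0.0502) or female SIRT6-tg replicate 7 (0.0555 and 0.0651). *Mccc2* alone was also lost without male SIRT6-tg replicate 7 (0.0512), female WT replicate 4 (0.0587) or female SIRT6-tg replicate 4 (0.0553), and *Pccb* (0.41, SE 0.13, adjusted p = 0.0676) passed without female SIRT6-tg replicate 6 (0.0165). Under TMM the members' median difference lay 0.30 above that of all genes, a distance that a change of scaling leaves nearly as it is.

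Between WT mice of the 2 sexes, 8 of 10 members had lower means in males, but *Mccc2* was the only one that passed. It was lower in males by a log2 fold change of -0.30 (SE 0.09, adjusted p = 0.0211), with 0 members higher and 1 lower against 6.66% of all genes tested that were higher and 5.71% lower. Male and female WT ranges of *Mccc2* overlapped (58.6 to 69.9 against 65.4 to 88 CPM), and the call was lost without male WT replicate 7 (adjusted p = 0.0633) or female WT replicate 4 (0.0597). *Aass* stood at -0.29 (SE 0.11, adjusted p = 0.0784) and passed without male WT replicate 5 (0.0419). Under hepatocyte-gene scaling all 10 values were above 0, *Mccc2* at 0.01, and *Pccb* was called higher in males there and under library size alone. Of all genes called, 93.9% were higher in males under the former and 86.8% under the latter. TMM factors of the WT groups did not overlap (1.06 to 1.17 in males, 0.908 to 1.02 in females). Under TMM, 8 of 8 T cell, 3 of 8 macrophage and 3 of 5 stellate cell markers were higher in male WT mice. Of 15 hepatocyte markers 6 were lower. The part of these markers in the results on the members was not tested.
Between SIRT6-tg mice of the 2 sexes, *Pccb* (0.46, SE 0.09, adjusted p = 6.46e-04), *Pcca* (0.37, SE 0.13, adjusted p = 0.0341) and *Gcdh* (0.27, SE 0.09, adjusted p = 0.0315) were higher in males, and 0 members were lower, against 12.9% of all genes tested that were higher and 10.2% lower. *Pccb* in male SIRT6-tg mice (236.6 to 339 CPM) exceeded female SIRT6-tg mice (178.2 to 256.3 CPM) except for overlap with female replicate 6. *Pcca* lost its call without male SIRT6-tg replicate 1, 2 or 3 or female SIRT6-tg replicate 1, 2, 6 or 7 (adjusted p from 0.052 to 0.0885), *Gcdh* without male SIRT6-tg replicate 4 or 7 or female SIRT6-tg replicate 2, 4, 5 or 7 (0.0527 to 0.0754), and *Bckdha* (0.27, adjusted p = 0.106) gained one without male WT replicate 6 (0.0345) or male SIRT6-tg replicate 7 (0.0451). *Aass* in male SIRT6-tg mice (mean 347.2 CPM) was at the level of female SIRT6-tg mice (349.7), and female WT mice (321.4) lay between these and male WT mice (263.6). The 4 comparisons of group pairs share libraries.

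Subunits of 1 complex are made in fixed proportions in the assembled enzyme, so their transcript ratios were compared within each mouse, which needs no scaling between libraries. The ratio of counts *Pcca*/*Pccb* was 0.337 in male WT, 0.343 in male SIRT6-tg, 0.347 in female WT and 0.365 in female SIRT6-tg mice (geometric means, n = 7). *Mccc1*/*Mccc2* was 0.742, 0.673, 0.657 and 0.691 in the same order. No ratio of the 5 pairs passed the test in any of 3 comparisons (15 exact two-sided permutation tests, smallest possible p = 5.83e-04, lowest adjusted p = 0.555).
The largest difference was that of *Bckdha*/*Bckdhb* in males, 0.596 in SIRT6-tg against 0.492 in WT, a log2 difference of 0.28 (exact p = 0.148). The lowest p was that of *Bckdhb*/*Dbt* in males, 0.725 against 0.8 (log2 difference -0.14, exact p = 0.0746). SDs of the log2 ratios within groups were 0.13 to 0.42.

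**Figure D4:**
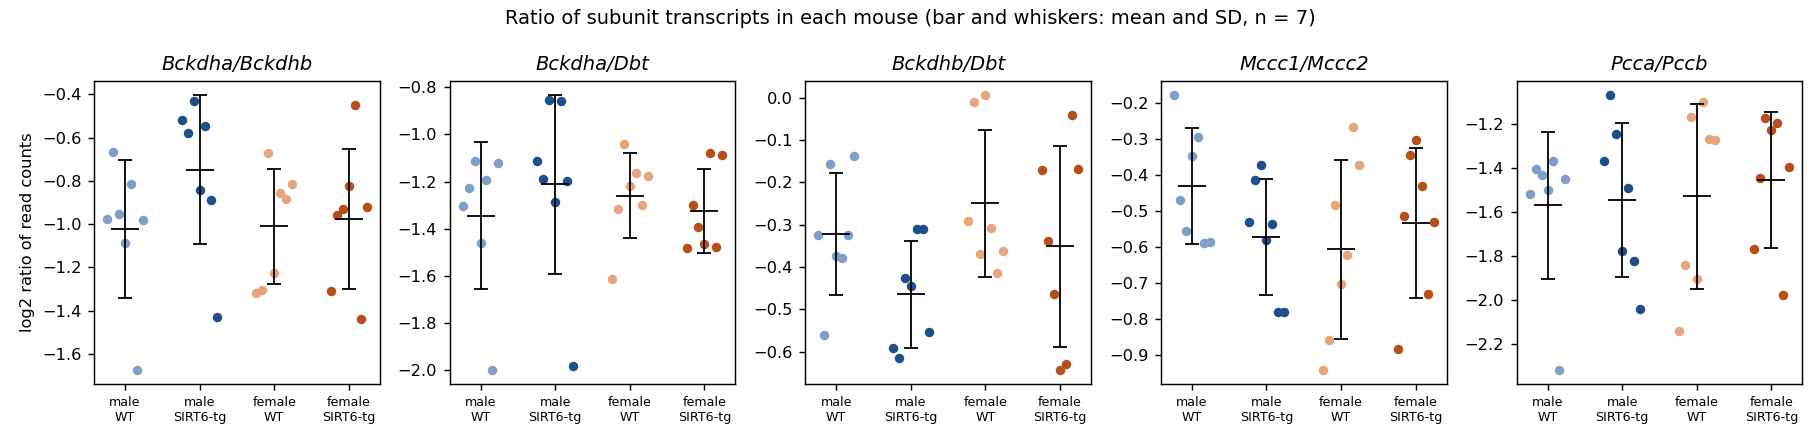
Log2 ratio of read counts of 2 subunits of the same enzyme in each mouse, by group; bars are means and whiskers SDs of 7 mice. Within each sex, SIRT6-tg and WT means lie within about 1 SD of each other in each pair. For *Bckdhb*/*Dbt*, male SIRT6-tg (mean -0.464, SD 0.127) and female WT mice (-0.25, SD 0.174) lie farther apart. *Pcca*/*Pccb* spans from 0.201 to 0.477 as a ratio over the mice.

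Departures of single mice from their group were often not shared by the subunits of 1 enzyme. The SD of the log2 *Pcca*/*Pccb* ratio, 0.31 to 0.42 in the 4 groups, exceeded that of each subunit alone (0.2 to 0.3 for *Pcca*, 0.09 to 0.18 for *Pccb*) in every group. Relative to their group means, *Pcca* and *Pccb* departed in the same direction in only 6 of 28 mice, and *Bckdha* and *Bckdhb* in 11. By contrast *Bckdha* and *Pcca*, of different enzymes, moved the same way in 25 of 28 mice, *Bckdhb* and *Gcdh* in 26 and *Mccc2* and *Gcdh* in 25.
Of the remaining pairs within 1 enzyme, *Bckdhb* and *Dbt* agreed in direction in 19 mice, *Mccc1* and *Mccc2* in 17 and *Bckdha* and *Dbt* in 14. Over all 45 pairs the counts ran from 5 (*Bckdha* with *Pccb*) to 26. They are descriptive: the points share libraries and their scaling, and male SIRT6-tg replicate 7 and female SIRT6-tg replicate 6, the lowest of their groups in TMM factor, were the highest of their groups in *Pccb*, *Bckdhb*, *Mccc2* and *Gcdh*. Male WT replicate 6 was the lowest of its group in *Bckdha*, *Pcca*, *Ivd*, *Mccc1*, *Aass* and *Gcdh*.

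Over all 28 libraries, the genes whose centred log2 level lay closest to the members' mean profile, among 10043 genes with a mean scaled count of at least 100, were *Masp2* (root-mean-square distance 0.07), *Plpbp* (0.08), *Stard7* (0.08), *Ndufs1* (0.08) and *Slc25a16* (0.09, all log2 units). Among the members, *Ivd* lay closest to that profile (0.07) and *Pcca* farthest (0.21). The members' mean profile stood at -0.18 in male WT, 0.20 in male SIRT6-tg, -0.03 in female WT and 0.01 in female SIRT6-tg mice.

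Of 34 other genes of the same pathways, 22 were higher and 1 was lower in male SIRT6-tg mice under TMM (median log2 fold change 0.38), against the 9.68% and 11% of all genes given above. Under library size alone 2 were higher, where 4.89% of all 4293 genes called were higher. The lower gene was *Bcat1*, the cytosolic branched-chain aminotransferase, which had 0 to 3 reads per library. Its mitochondrial form *Bcat2* was at 25.7 ± 2.6 CPM in male WT mice, with a log2 fold change of 0.26 (SE 0.11, adjusted p = 0.0955).
Around the dehydrogenase complex, *Dld*, the E3 subunit that it shares with other complexes, rose by 0.39 (log2 fold change, SE 0.08, adjusted p = 0.00113) without overlap, from 144.4 to 169.5 CPM in male WT to 185.7 to 240.5 in male SIRT6-tg mice. The kinase and the phosphatase that switch the complex off and on did not pass: *Bckdk* was at 0.18 (SE 0.13) and *Ppm1k* at 0.36 (SE 0.17, adjusted p = 0.15). Neither did the mitochondrial carrier *Slc25a44* (0.12, SE 0.14).
All 10 genes of the later breakdown of branched-chain acyl-CoAs were higher in male SIRT6-tg mice, with log2 fold changes of 0.36 (*Acadsb*) to 0.65 (*Hsd17b10*). *Acat1*, the mitochondrial acetoacetyl-CoA thiolase, rose from 241.4 to 368.6 CPM in male WT to 450.6 to 534.2 CPM in male SIRT6-tg mice without overlap (0.59, SE 0.11, adjusted p = 1.95e-04). *Acad8*, the isobutyryl-CoA dehydrogenase of valine, rose by 0.47 (SE 0.09, adjusted p = 2.62e-04).
Downstream of propionyl-CoA carboxylase, *Mcee*, *Mmaa* and *Mmachc* were higher, whereas *Mut*, the methylmalonyl-CoA mutase itself, was at 0.27 (SE 0.1, adjusted p = 0.0606) and *Mmab* at 0.31 (SE 0.16). Of the biotin genes that serve *Mccc1* and *Pcca*, *Btd*, which recycles biotin, was higher (0.31, SE 0.09) and *Hlcs*, which attaches it, was at -0.09 (SE 0.14).
In lysine breakdown, 5 of 7 genes were higher. *Aadat*, the aminoadipate aminotransferase, rose by 0.55 (SE 0.09, adjusted p = 5.83e-05) without overlap, and *Aldh7a1*, which oxidises aminoadipate semialdehyde, by 0.38 (SE 0.09, adjusted p = 0.00231), while *Dhtkd1* was at 0.17 (SE 0.21). *Etfa* and *Etfdh*, which accept the electrons of the dehydrogenases encoded by *Ivd* and *Gcdh*, rose by 0.48 and 0.46, and *Etfb* (0.65, SE 0.38) did not pass, its CPM running from 35.1 to 138.7 within male WT mice alone.

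**Figure D5:**
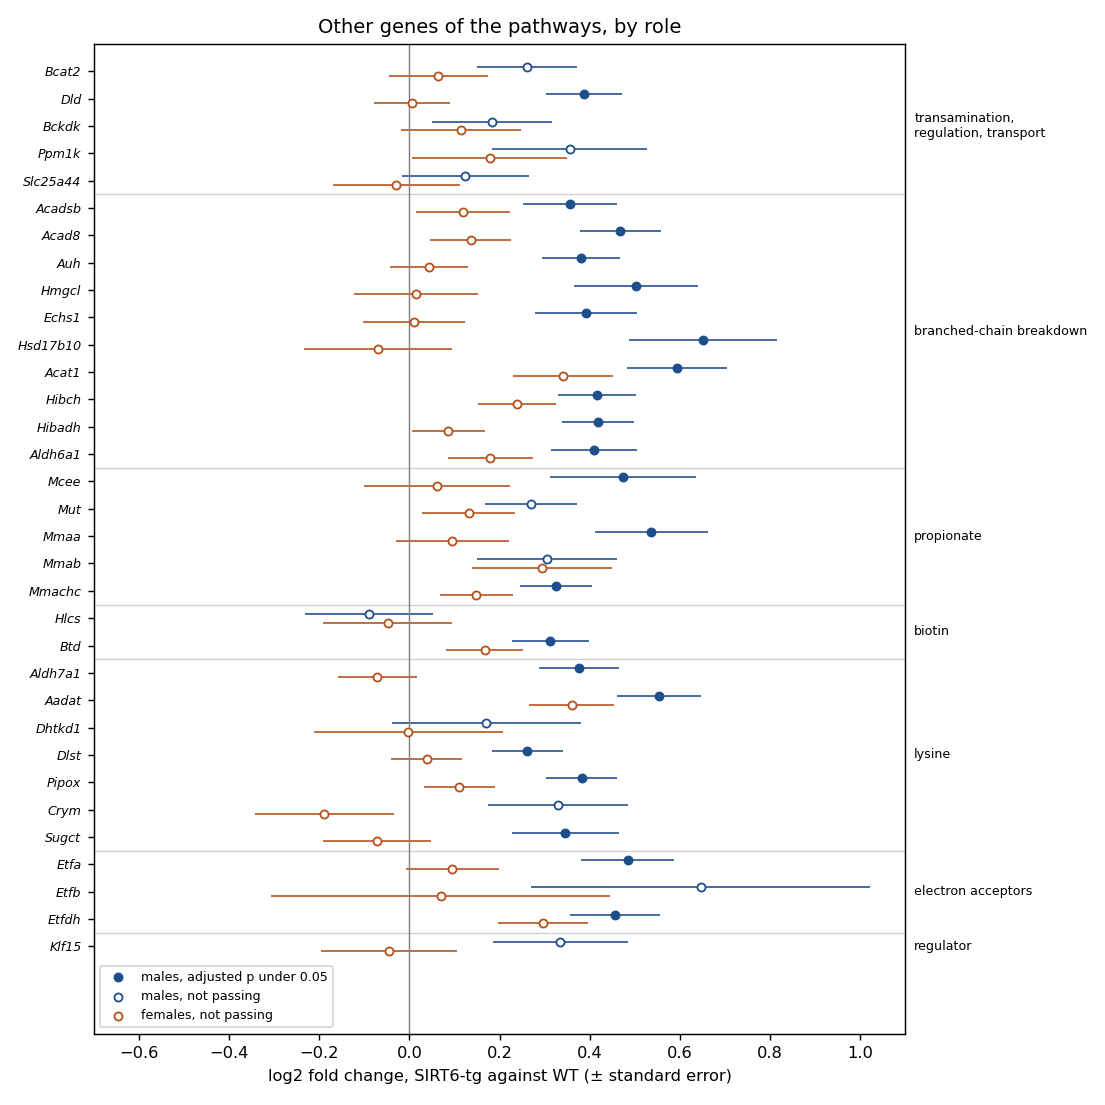
Log2 fold change with standard error of 33 other genes of the pathways, grouped by role (*Bcat1*, with 0 to 3 reads per library, is not drawn), SIRT6-tg against WT in males (blue) and females (orange) under TMM scaling; filled points have an adjusted p under 0.05. All 10 later branched-chain genes are filled in males, and no female point is filled. On library size alone, where 4.89% of all 4293 genes called were higher, 2 of the genes would pass in males.

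In females 0 of the 34 pathway genes passed. *Aadat* (0.36, SE 0.09, adjusted p = 0.246) and *Acat1* (0.34, SE 0.11, adjusted p = 0.459) had the largest values among genes above 3 reads per library. The difference between the sexes passed for *Aldh7a1* alone (0.45, adjusted p = 0.0305), against 1.2% of all genes tested that were higher and 3.84% lower. It was lost under RLE, upper-quartile, library size alone and hepatocyte-gene scaling, without a filter on low counts and with the replicate block, and without male WT replicate 2, 4 or 7, male SIRT6-tg replicate 4 or 7, female WT replicate 4 or female SIRT6-tg replicate 4, 5 or 7, whereas 5 pathway genes passed without female SIRT6-tg replicate 6. Its means were 636.4 and 825.8 CPM in male WT and SIRT6-tg and 516.3 and 491.4 CPM in the female groups. Under TMM, in WT mice 1 gene of the list was higher in males and 9 lower (6.66% and 5.71% of all genes tested). Under library size alone 3 were higher and 0 lower, where 86.8% of all 4212 genes called were higher. Under hepatocyte-gene scaling 8 were higher and 0 lower, where 93.9% of all 5544 genes called were higher. In SIRT6-tg mice 8 were higher and 2 lower (12.9% and 10.2% of all genes), 5 and 6 under library size alone and 4 and 3 under hepatocyte-gene scaling. Of all genes called under these 2 scalings, 39% of 4862 and 40% of 4110 were higher.
Lists from neighbouring metabolism differed in males to a like extent, so the shift was not shown to be particular to the members. Under TMM, of 9 genes of histidine and tyrosine breakdown 8 were higher in male SIRT6-tg mice (median log2 fold change 0.44), and of 16 TCA cycle genes 11 (median 0.34). The 15 hepatocyte markers, outside these pathways, had a median of 0.37 there, as did the members. Of these markers 14 were above 0 and 1 below, and 7 were called higher. Of all genes tested, 9.68% were higher. *Dlst* stands in both the TCA cycle list and the list of other lysine genes.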

How the data were processed

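Liver RNA of 28 mice was sequenced as single-end reads, 1 NEBNext Ultra library per mouse. The authors aligned reads with STAR 2.5.0a to mm10 with Gencode annotation and kept uniquely mapped reads, and they deposited raw counts per gene from HTSeq, with no normalization. The strand setting of the counting is not given in the sources used here. Raw counts of the 28 columns were used, each mapped to a mouse by its label.

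Genes with a mean scaled count of at least 0.5 (21583 of 49585) were tested with edgeR 4.0.16 (TMM, quasi-likelihood, 1 model of the 4 groups, 24 residual degrees of freedom), with p-values adjusted by Benjamini-Hochberg over all genes tested. Standard errors were the log2 fold change over the root of the F statistic. Ratios were compared by exact two-sided permutation tests with 0.5 added to each count. The step was tested on simulated data. DESeq2 1.42.0, other scalings, filters, each library left out and a replicate block were tried as alternatives. Leaving out the library with the lowest TMM factor of each group, and the other lengths used for levels per kb, were chosen after seeing the data. The labels give no batch, cage or litter, and no columns were left unmapped. No pair of libraries within a group agreed within sampling noise.

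The members and the gene lists were chosen with earlier results of these data known. All members are named. Of 34 further pathway genes, those passing a test or at the extremes could be named; lists for histidine and tyrosine breakdown, the TCA cycle and cell type markers are given by counts. Symbols, exon lengths and overlaps came from Gencode, the lengths and overlaps from vM21, a later release than the one used for counting. Of 49585 identifiers, 43749 matched in version. Promoters came from RefSeq GRCm38.p6; protein sequences were not used here.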

Additional observations from a re-analysis of the deposited data

Results flagged for a closer look

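In 5 of the 40 sets of 7 values (10 members in 4 groups), 1 mouse stood apart from the other 6 by more than the 95% limit of Dixon's test, where chance flags about 1 in 20 sets. Male WT replicate 6 was lowest in *Bckdha* (24.4 CPM) and in *Pcca* (45.6 CPM). Male SIRT6-tg replicate 6 was lowest in *Mccc1* (50.5 CPM) and male SIRT6-tg replicate 7 highest in *Bckdhb* (112 CPM). Female SIRT6-tg replicate 6 was highest in *Pccb* (256 CPM), and without it the difference between the sexes in the transgene effect passed for *Pccb*.

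The effect of the transgene differed between the sexes, by the test of the difference itself under TMM scaling, for *Gcdh* (0.472 on the log2 scale, male minus female), *Mccc2* (0.448) and *Sirt6* (3.29). The *Gcdh* and *Mccc2* calls changed with the scaling and *Mccc2* with its sign under hepatocyte-gene scaling. *Sirt6* counts in transgenic mice were 198.1 to 358.2 CPM in males and 16.4 to 50.2 CPM in females, so sex and the level of the transgene cannot be told apart in these comparisons.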

How the results depend on the processing

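The count of members higher in male SIRT6-tg mice was 9 as reported. It was 2 with library size alone, 0 with hepatocyte-gene scaling, 4 (*Mccc2*, *Pccb*, *Aass* and *Gcdh*) when the male libraries were fitted alone and 6 without the 4 libraries with the lowest TMM factor, and 7 to 9 with each library left out. Pathway genes higher fell from 22 to 2 and 0 under library size alone and hepatocyte-gene scaling (18 to 23 with each library left out). Of all genes called in males under these 2 scalings, 4.89% of 4293 and 3.6% of 3917 were higher. The 1 pathway gene that was lower became 0 with filterByExpr, no filter, DESeq2 and the replicate block, and was 0 to 1 with each library left out. Calls in females, 6 as reported, were 13 with hepatocyte-gene scaling, 44 with DESeq2, 2 when female libraries were fitted alone, 3 without the 4 lowest-TMM libraries and 3 to 16 with each library left out, with no member called under any of these; 1 pathway gene was called higher by DESeq2.

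For the difference between the sexes, 1088 genes were called, 1863 with library size alone and 2414 with hepatocyte-gene scaling. The 2 members called became 0 with RLE, upper-quartile, library size alone, hepatocyte-gene scaling, no filter and the replicate block, 1 without the 4 lowest-TMM libraries and 0 to 3 with each library left out. The 1 pathway gene called became 0 with RLE, upper-quartile, library size alone, hepatocyte-gene scaling, no filter and the block, 2 with filterByExpr, 3 with DESeq2 and 0 to 5 with each library left out, and 1 pathway gene was called lower with hepatocyte-gene scaling and 1 without the 4 lowest-TMM libraries.

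Between WT mice, 2669 genes were called, 4212 with library size alone and 5544 with hepatocyte-gene scaling. The 1 member lower became 0 with both of these, with no filter, with WT libraries alone and without the 4 lowest-TMM libraries, and was 0 to 2 with each library left out, and 1 member was higher with library size alone and 1 with hepatocyte-gene scaling. Pathway genes went from 1 higher and 9 lower to 3 higher and 0 lower with library size alone and to 8 higher and 0 lower with hepatocyte-gene scaling. Between SIRT6-tg mice, the 3 members higher became 1 with upper-quartile, library size alone and hepatocyte-gene scaling, and 1 to 4 with each library left out. Pathway genes higher went from 8 to 5 and 4 with library size alone and hepatocyte-gene scaling, and pathway genes lower from 2 to 5 with upper-quartile, 6 with library size alone, 0 with no filter, 5 with DESeq2, 4 with SIRT6-tg libraries alone, 0 with the replicate block and 0 to 4 with each library left out.

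Under hepatocyte-gene scaling 3 called values changed sign: *Dbt* in males (-0.0331), the difference between the sexes of *Mccc2* (-0.00567) and *Mccc2* between WT mice (0.0106). Of calls in males, 46.8% were higher under TMM, 35.7% under RLE, 26.2% under upper-quartile, 4.89% under library size alone and 3.6% under hepatocyte-gene scaling, and for the difference between the sexes 23.8, 14.2, 10.8, 1.4 and 0.87%. Between WT mice the share was 53.8% under TMM, 86.8% under library size alone and 93.9% under hepatocyte-gene scaling, and between SIRT6-tg mice 55.9% under TMM and 39.2% under upper-quartile. Which scaling is right for these livers was not tested. The subunit ratios stayed without a call under every library left out.

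Replicate numbers are shared by the 4 groups but same-numbered mice did not deviate together: the mean correlation of 42 same-number pairs was 0.0121 (-0.345 to 0.328), and 3 of 28 libraries correlated best with their own number, so the numbers were not taken as pairing. With the replicate number as a block, 9 members were higher in males and 0 in the difference between the sexes.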

Other observations

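*Klf15*, a transcription factor known to drive branched-chain amino acid breakdown genes in muscle and liver, was at 128.7 ± 28.1 CPM (SD, n = 7) in male WT and 162.3 ± 27.3 CPM in male SIRT6-tg mice, and the difference (log2 fold change 0.33, SE 0.15) did not pass (edgeR, adjusted p = 0.117). In females it was at 135.4 and 131.2 CPM. Genes of side routes of lysine and of glutaryl-CoA were higher in male SIRT6-tg mice under TMM: *Pipox*, which oxidises pipecolate, by 0.38 (SE 0.08, adjusted p = 5.97e-04) with no overlap of the groups, and *Sugct*, which forms glutaryl-CoA from glutarate, by 0.35 (SE 0.12, adjusted p = 0.0376). *Crym*, a ketimine reductase, had 25 to 76 reads per library and did not pass (0.33, SE 0.16).

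Median levels of markers of tissues next to the liver were near 0, except for adipocyte genes (group medians of 5.97 to 7.98 CPM). Summed pancreas acinar genes were at 0.0416 to 3.15 CPM, muscle genes at a median of 0.147 CPM in male WT, 0.0417 in female WT and 0 in both SIRT6-tg groups, with highest libraries of 6.99 CPM (male WT) and 26.8 CPM (female WT), adipocyte genes at 4.14 to 39.2 CPM and kidney genes at 0 to 2 reads. In the male comparison 1 of 4 pancreas and 1 of 4 adipocyte genes were lower, and 0 of 5 cholangiocyte and 1 of 4 endothelial genes, against 11% of all genes tested.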
